A study of Homo sapiens with 6 samples.

Results

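The brush border hydrolases are enzymes anchored in the microvillus membrane of intestinal absorptive cells (enterocytes), where they finish the digestion of sugars, peptides and phosphate esters. The 9 genes described here were taken by symbol from a deposited table of 27685 genes, and each symbol matched 1 row: the glycosidase genes SI, LCT, TREH and MGAM, the peptidase genes DPP4, ANPEP, MME and ENPEP, and the phosphatase gene ALPI. They were read in Caco-2, an established cell line from a human colorectal tumour that comes to resemble enterocytes when grown past confluence. The vector control group was wild-type Caco-2 mock-transfected with the empty vector pcDNA3, and the other group carried hFABP1as, a construct directed against the RNA of FABP1, which encodes the liver-type fatty acid binding protein. Each group had 3 libraries of polyA RNA, named here by the numbers 2, 3 and 4 in the column headers, with 40351394 to 57979037 counts each. The labels do not say how many clones each group came from, nor how long cells had been confluent, so a difference between lines cannot be told apart from an effect of the construct. The labels do not say that separate cultures gave the libraries of a group. The p-values are thus measured against the spread among 3 libraries, which may be technical.

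FABP1 counts were not reduced where the labels say antisense. It stood at 138, 102 and 121 CPM (counts-per-million, scaled between libraries) in the control libraries and at 134, 147 and 122 CPM in the others (adjusted p = 0.268, edgeR quasi-likelihood test, Benjamini-Hochberg method, as for every adjusted p here). The use of strand in counting is not stated, so RNA of the gene and of the construct cannot be told apart in these counts. Rises and falls below are therefore those of the libraries labelled FABP1 antisense. Of 14640 genes tested, 55.0% differed at an adjusted p under 0.05, 27.7% higher and 27.3% lower, so a share of calls near these is the background. Of 12 enterocyte markers, 11 were tested, 7 rose and 3 fell (median log2 fold change 1.32). Among them, CEACAM5 rose by 6.49 (SE 0.19) and APOA4 fell by 5.16 (SE 0.12). The near-equal sums of the 12 markers, 1730 to 1890 CPM in controls and 1890 to 1970 CPM in the others, cover opposite changes. In CPM, the largest were a rise of CDH17 from 320 to 797 and a fall of APOB from 720 to 203.

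The glycosidases split dietary sugars into units that can be absorbed. Sucrase-isomaltase (SI) cuts sucrose and branched starch fragments, lactase (LCT) cuts milk sugar, trehalase (TREH) cuts trehalose, and maltase-glucoamylase (MGAM) trims starch chains from their ends. SI and MGAM are related enzymes, each with a pair of catalytic domains. The peptidases trim peptides: DPP4 takes off dipeptides after proline or alanine, ANPEP (aminopeptidase N) takes off neutral residues, ENPEP (aminopeptidase A) acidic residues, and MME (neprilysin) cuts inside chains. ALPI, intestinal alkaline phosphatase, removes phosphate from luminal substrates. The homeodomain factor CDX2 and GATA factors are textbook regulators of the SI and LCT promoters.

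Bases upstream of the annotated starts are shown first, for the member that rose most, its relatives, a member with separate starts and the member that fell. RefSeq promoter windows (build GRCh38.p14) were found for 8 of 9 genes, and LCT had no entry. The RefSeq gene spans of SI, MGAM and MME extend upstream of the windows scanned, so starts further upstream may be missing here. The stretches below are the 200 bases before the start, 5′ to 3′ on the gene's strand. Capitals mark matches, on either strand, to the CDX core TTTAT, the HNF1 half-site GTTAAT and the GATA core GATAA. SI rose most, MGAM and MGAM2 are its relatives, and DPP4 was the member that fell.
SI, chr3:165078497-165078696, minus strand: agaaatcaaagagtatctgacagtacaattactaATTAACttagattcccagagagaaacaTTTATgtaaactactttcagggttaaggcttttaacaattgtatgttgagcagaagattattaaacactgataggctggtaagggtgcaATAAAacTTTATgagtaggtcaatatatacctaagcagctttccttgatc
MGAM, chr7:141995679-141995878, plus strand: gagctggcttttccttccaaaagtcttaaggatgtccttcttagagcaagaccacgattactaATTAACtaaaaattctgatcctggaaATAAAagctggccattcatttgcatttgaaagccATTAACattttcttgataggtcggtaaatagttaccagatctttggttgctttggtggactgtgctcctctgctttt
MGAM2, chr7:142111518-142111717, plus strand: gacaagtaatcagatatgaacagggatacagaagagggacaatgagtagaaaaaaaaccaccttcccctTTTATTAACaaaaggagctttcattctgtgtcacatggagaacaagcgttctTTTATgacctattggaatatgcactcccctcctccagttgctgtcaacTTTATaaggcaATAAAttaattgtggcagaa
ANPEP downstream start, chr15:89806629-89806828, minus strand: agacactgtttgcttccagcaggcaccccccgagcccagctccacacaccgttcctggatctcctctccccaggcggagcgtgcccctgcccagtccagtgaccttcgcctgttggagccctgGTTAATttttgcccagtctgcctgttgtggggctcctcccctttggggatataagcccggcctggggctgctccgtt
ANPEP upstream start, chr15:89814853-89815052, minus strand: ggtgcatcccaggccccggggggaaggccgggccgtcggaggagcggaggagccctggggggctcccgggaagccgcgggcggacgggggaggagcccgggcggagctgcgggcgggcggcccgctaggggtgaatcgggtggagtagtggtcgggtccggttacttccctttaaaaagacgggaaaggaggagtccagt
DPP4, chr2:162074216-162074415, minus strand: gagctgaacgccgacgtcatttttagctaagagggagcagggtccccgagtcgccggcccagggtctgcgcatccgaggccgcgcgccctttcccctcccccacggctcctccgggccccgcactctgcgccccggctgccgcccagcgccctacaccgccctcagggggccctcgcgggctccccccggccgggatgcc

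In the 250 bases upstream of SI there were 4 matches to the CDX core, at -236 (outside the stretch shown), -139, -50 and -43 from the start, and 1 HNF1 half-site at -166. Among 35116 RefSeq windows of that length, 32.7% held at least 1 CDX core and 5.20% held 3 or more. The HNF1 half-site was in 6.23% and the GATA core in 20.4%. These shares were not matched for base composition. The CDX core holds only A and T, and the SI window was 31.6% G and C. SI, MGAM and MGAM2 had 0 matches to the GATA core as spelled here, GATAA. The stretches shown for SI and MGAM hold the letters TGATAG, and other spellings of a GATA site were not counted. MGAM had 1 CDX core and 2 HNF1 half-sites. MGAM2 had 4 CDX cores, of which 1 overlapped a TATA element, and 1 HNF1 half-site, which overlapped another of its CDX cores. A TATA element here means only the letters TATAAA on either strand, at any distance from the start. The longest string that the SI and MGAM windows shared was 14 bases, ATTACTAATTAACT, at -173 in SI and -144 in MGAM, across the half-site of both. No other gene's window held it. The string was picked from these same windows, and its absence from others was not compared with an expected rate.

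The downstream ANPEP start had 1 HNF1 half-site at -77, and the upstream start had 0 matches to the 3 motifs. DPP4, ALPI, TREH and all 4 MME starts also had 0 matches. ENPEP had 2 CDX cores, both overlapping a TATA element, and 1 GATA core. A link between these matches and the changes in expression was not tested. Base composition differed: G and C made up 31.6% of the 250 bases upstream of SI, which was less than in all but 2.39% of windows, 62.4% upstream of TREH, 58.4% upstream of ALPI and 73.6% upstream of DPP4, with a median of 58% over all windows. A match to such short strings is a description, not evidence of binding.

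**Figure D1:**
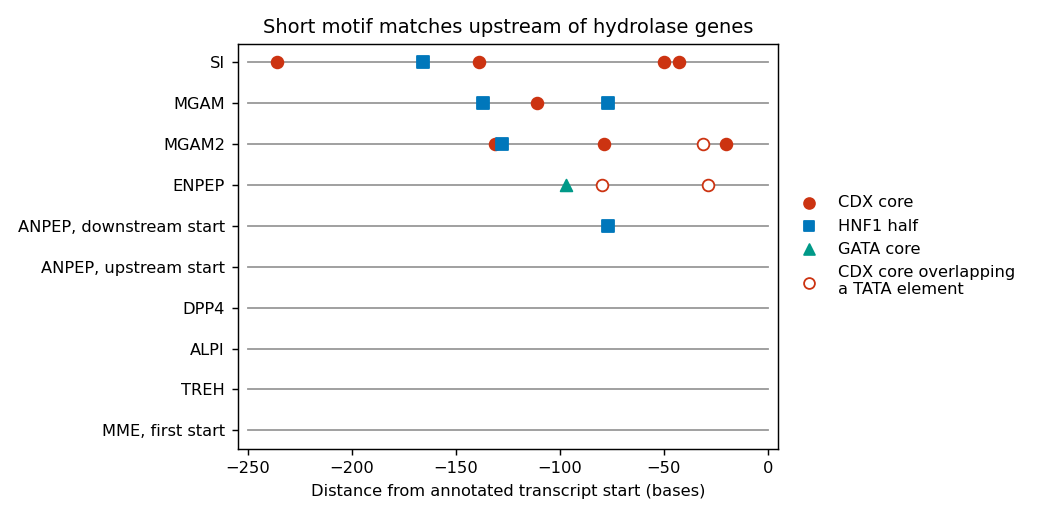
Positions of short motif matches in the 250 bases before the annotated start (x axis, bases from the start) for 10 windows of 8 genes with an entry and MGAM2. Filled circles are CDX cores, squares HNF1 half-sites and triangles GATA cores. Open circles are CDX cores overlapping a TATA element (the letters TATAAA on either strand). SI holds 4 CDX cores, while the lines of DPP4, ALPI, TREH and the first MME start are empty.

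Among the 9 hydrolases, 8 passed the filter on low counts; 5 of these rose (SI, LCT, TREH, ANPEP and ALPI), DPP4 fell, and MME and ENPEP did not pass the test. The share of all tested genes called was 27.7% upward and 27.3% downward. The median log2 fold change of the 8 tested was 1.11, beside 0.01 over all tested genes. It was 1.79 without control library 4, where MGAM was tested too, and 1.78 with a stricter filter, which ENPEP did not pass. Of the 8 tested, 4 rose at least 2-fold (SI, LCT, TREH and ANPEP), beside 8.80% of all tested genes. Changes ran from a fitted 84.9-fold rise of SI to a fall of DPP4 to 0.524 of the control level. MGAM was under the filter. In bulk RNA, fewer cells with a transcript and less transcript per cell cannot be told apart.

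**Figure D2:**
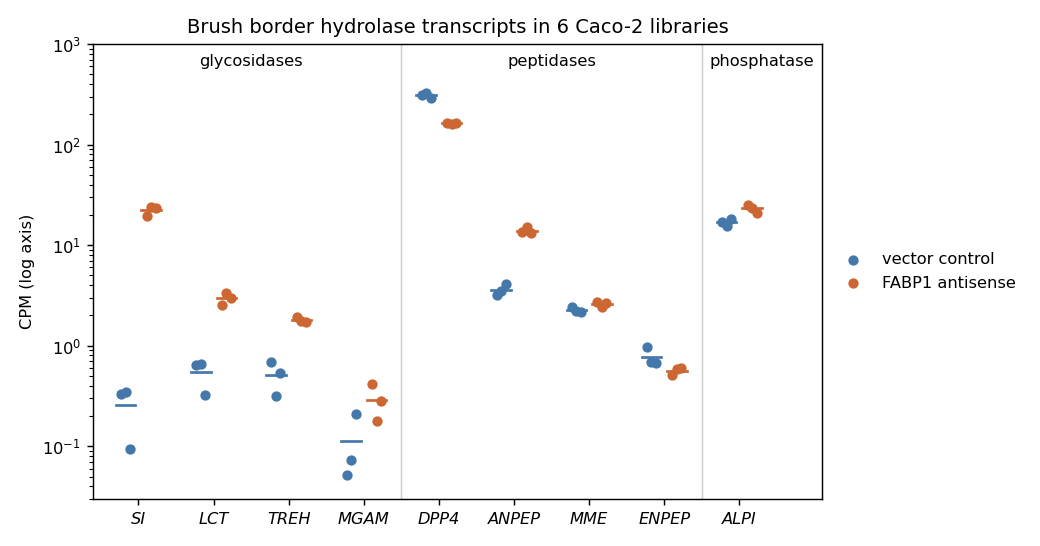
Levels of the 9 genes in CPM (y axis, log scale) in each of 6 libraries; points are libraries and bars are group means. The SI libraries lie at 0.0932 to 0.343 CPM in the vector control and 19.5 to 24.1 CPM in the antisense-labelled group, while DPP4 goes from 292 to 323 CPM down to 159 to 165 CPM.

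Sucrase-isomaltase RNA rose from a few counts per library to the largest change of any member. SI (gene ID 6476) had 0.330, 0.343 and 0.0932 CPM in control libraries 2, 3 and 4, or 37 counts in all. Antisense-labelled libraries 2, 3 and 4 had 19.5, 24.1 and 23.4 CPM, or 3197 counts in all. Every antisense library lay far above every control library, and the control library numbered 4 was the lowest. The log2 fold change was 6.41 (SE 0.25, n = 3 per group, edgeR adjusted p = 1.73e-07), which is 84.9-fold with a 95% interval of 57.0 to 126. Only 2.80% of tested genes rose at least 8-fold.

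Lactase and trehalase rose from low levels by smaller factors. LCT (gene ID 3938) had 0.643, 0.661 and 0.326 CPM in the control libraries and 2.55, 3.38 and 3 CPM in the others. It rose 5.43-fold (95% interval 3.47 to 8.49; log2 fold change 2.44, SE 0.28; edgeR adjusted p = 0.000129). TREH (gene ID 11181) had 0.695, 0.318 and 0.536 CPM in the control and 1.92, 1.77 and 1.72 CPM in the antisense-labelled libraries. It rose 3.43-fold (95% interval 2.14 to 5.48; log2 fold change 1.78, SE 0.30; edgeR adjusted p = 0.00106). The groups did not overlap for either gene, and both intervals lay below that of SI.

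The sources used here do not give whether reads were counted by strand, so genes that overlap these members were read too. The antisense gene inside LCT (LOC100507600, now LCT-AS1) had 0 counts in all 6 libraries. PHLDB1, which overlaps TREH in the RefSeq table, went the other way, from 64.4 ± 4.6 to 48.4 ± 2.7 CPM (SD, n = 3; log2 fold change -0.41, edgeR adjusted p = 0.0024). Its part in the TREH counts was not tested.

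MGAM barely registered in either group. It had 3, 3 and 9 counts in the control libraries and 17, 8 and 16 in the others, that is 0.0521, 0.0735 and 0.210 against 0.413, 0.179 and 0.284 CPM. The groups overlapped, since antisense library 3 lay below control library 4. Without a filter its log2 fold change was 1.38 and did not pass edgeR's test (adjusted p = 0.147). Leaving out control library 4 raised it to 2.19, with an adjusted p of 0.03 by edgeR. Without control library 2, control library 3 or antisense library 3 it was 1.01, 1.21 and 1.65. None of these passed (edgeR adjusted p = 0.248, 0.187 and 0.0742). Without antisense library 2 or 4, MGAM was under the filter.

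MGAM2, the neighbouring gene of the same family, was expressed more strongly and rose. It had 2.80, 3.13 and 2.91 CPM in the control and 25.1, 30.4 and 27.6 CPM in the antisense-labelled libraries (log2 fold change 3.23, SE 0.11; edgeR adjusted p = 6.96e-08). MGAM2 thus had CPM values close to those of SI in the antisense-labelled libraries, but began from a higher control level. MGAM and MGAM2 are similar in sequence, and reads that fit both could be split in counting, so the MGAM values are uncertain.

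The peptidases did not move together. DPP4 (gene ID 1803), by far the most abundant member, had 312, 323 and 292 CPM in the control libraries and 162, 159 and 165 CPM in the others. The groups were far apart and each was tight. Its level fell to 0.524 of the control (95% interval 0.473 to 0.582; log2 fold change -0.93, SE 0.07; edgeR adjusted p = 6.31e-06).

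Aminopeptidase N moved in the opposite direction. ANPEP (gene ID 290) had 3.20, 3.48 and 4.08 CPM in the control libraries and 13.4, 15.0 and 13.3 CPM in the antisense-labelled ones. It rose 3.89-fold (95% interval 3.21 to 4.7; log2 fold change 1.96, SE 0.12; edgeR adjusted p = 2.61e-06). The table gives 1 total per gene, so the upstream and downstream starts printed above could not be told apart.

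MME and ENPEP showed differences too small to call. MME (gene ID 4311) had 2.40, 2.20 and 2.17 CPM against 2.74, 2.42 and 2.63 CPM. The groups just missed overlapping, with a log2 fold change of 0.20 (95% interval -0.16 to 0.57, edgeR adjusted p = 0.317). ENPEP (gene ID 2028), at 28 to 56 counts per control library and 21 to 34 in the others, had 0.973, 0.686 and 0.675 CPM against 0.510, 0.581 and 0.604 CPM. Its log2 fold change was -0.46 (95% interval -1.12 to 0.19, edgeR adjusted p = 0.205). These intervals reach a 1.48-fold rise for MME and a fall to 0.459 of the control for ENPEP, so neither gene was shown to be unchanged. Non-overlap alone was common, at 62.7% of tested genes.

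Intestinal alkaline phosphatase rose slightly, next to relatives that rose greatly. ALPI (gene ID 248) had 17.1, 15.4 and 18.4 CPM in the control and 25.2, 23.4 and 21.0 CPM in the antisense-labelled libraries. It rose 1.36-fold (95% interval 1.16 to 1.6; log2 fold change 0.45, SE 0.10; edgeR adjusted p = 0.00511). The placental and germ cell alkaline phosphatase genes ALPP and ALPPL2 (now ALPG), which lie beside ALPI in the same cluster, rose far more. ALPP had 1.01, 1.03 and 1.35 CPM in the control and 30.6, 30.7 and 27.3 CPM in the others (log2 fold change 4.71, SE 0.13; edgeR adjusted p = 3.38e-08). ALPPL2 had 1.04, 0.784 and 0.955 CPM against 32.0, 32.3 and 26 CPM (log2 fold change 5.00, SE 0.15; edgeR adjusted p = 4.07e-08).

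The make-up of the alkaline phosphatase cluster therefore changed more than ALPI itself. ALPI gave 88.9 to 89.5% of the summed CPM of the 3 genes in control libraries and 27.1 to 28.7% in the others, while their sum went from 17.2 to 20.8 CPM up to 74.3 to 87.8 CPM. ALPL, the tissue-nonspecific form, had 0 counts in all libraries. The 3 expressed genes are close in sequence, and reads shared between them could be split in counting. The rise of ALPI in CPM is small beside those of its neighbours, so its value is uncertain, and the part of shared reads in it was not tested. Upstream of the start, 84.4% of aligned positions were identical between ALPP and ALPG, but 59.8% between ALPP and ALPI and 59.2% between ALPG and ALPI.

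**Figure D3:**
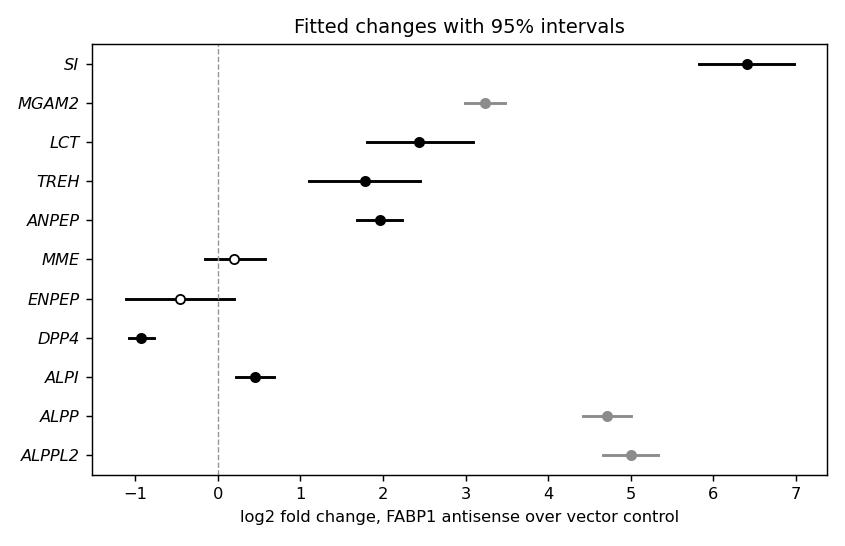
Fitted log2 fold changes of the 8 tested hydrolases (black) and of 3 relatives (grey), with 95% intervals; open circles did not pass an adjusted p of 0.05. SI stands at 6.41, above MGAM2 at 3.23, and ALPP and ALPPL2 stand at 4.71 and 5.00 while ALPI stands at 0.45.

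To compare levels between genes, CPM was divided by transcript length in kilobases, taken from GENCODE transcripts matched to the RefSeq accessions in the table. On this scale DPP4 was highest in both groups, at 79.2 ± 4.07 and 41.5 ± 0.787 CPM per kb (SD, n = 3). ALPI came next, at 6.66 ± 0.603 and 9.09 ± 0.820, followed by ANPEP, at 0.974 ± 0.122 and 3.78 ± 0.262 CPM per kb. SI went from next to last, at 0.0425 ± 0.0234, to 3.72 ± 0.409 CPM per kb, which did not differ from ANPEP beyond their spread.

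Lower in the order, control levels per kb were 0.405 ± 0.0222 for MME, 0.230 ± 0.0842 for TREH, 0.112 ± 0.0243 for ENPEP, 0.0865 ± 0.03 for LCT and 0.0171 ± 0.0131 for MGAM (SD, n = 3). ENPEP and LCT were neighbours within their spread. In the libraries labelled FABP1 antisense, TREH (0.803 ± 0.0455), LCT (0.474 ± 0.0659), MME (0.466 ± 0.03), ENPEP (0.0814 ± 0.00709) and MGAM (0.0448 ± 0.0180) followed SI, and LCT and MME lay within their spread. TREH has RefSeq transcripts of 1718 and 2771 bases; the median was used.

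Summed over the 9 genes, CPM per kb went from 84.0 to 90.6 in control libraries down to 59.9 to 60.1 in the others. The 4 peptidases together went from 80.6 ± 3.98 to 45.8 ± 0.596 CPM per kb, and the 4 glycosidases from 0.376 ± 0.0861 to 5.04 ± 0.413, a ratio of 13.4 (SD, n = 3). The peptidase sum was mostly DPP4, at 79.2 in the control and 41.5 in the other group, while ANPEP rose from 0.974 to 3.78. Of the glycosidase sum, SI gave 0.0425 in the control and 3.72 in the other group. DPP4 made up 89.1 to 91.4% of the sum in the control and 68.1 to 70.7% in the antisense-labelled libraries. SI made up 0.0185 to 0.0629% and 5.41 to 6.69%, ANPEP 0.983 to 1.32% and 6.02 to 6.81%, and ALPI 6.65 to 8.62% and 13.7 to 16.4%. These shares describe RNA, not enzyme amounts.

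**Figure D4:**
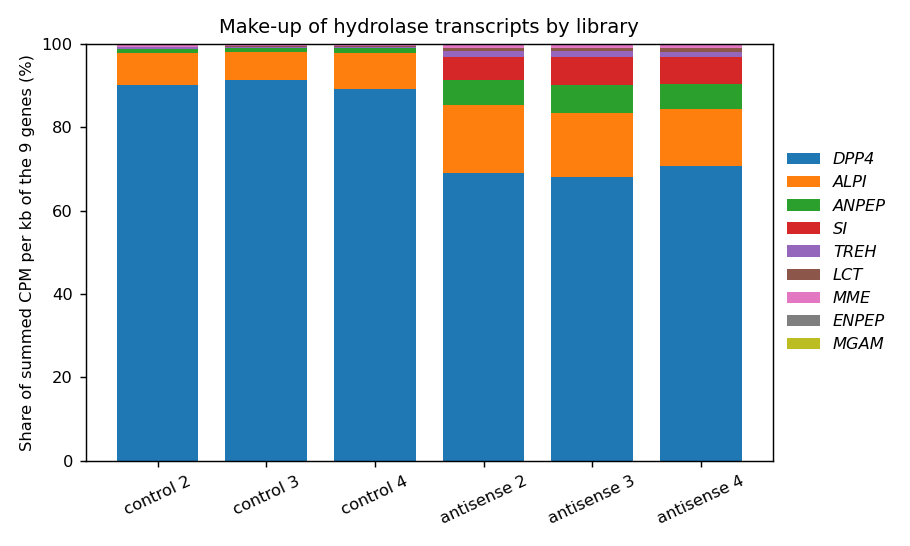
Share of each gene in the summed CPM per kb of the 9 hydrolases (y axis, percent), 1 bar per library. DPP4 fills 89.1 to 91.4% of the control bars and 68.1 to 70.7% of the others, where ALPI, ANPEP and SI take up more of the bar.

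Genes next to the members were read too, as signed medians, which can lie near 0 where neighbours moved both ways. Among the 20 tested genes on either side in RefSeq order, the median log2 fold change was 0.06 around SI, -0.24 around LCT, -0.11 around TREH, -0.15 around DPP4, 0.23 around ANPEP and 0.11 around ALPI. For MME and ENPEP the neighbours' medians were -0.32 and 0.34, each opposite in sign to the gene's own estimate. Beside SI, the nearest tested gene on one side was the noncoding RNA gene LINC01322, with 0 counts in the control group and 48 in the other, at least 15.9-fold higher against 3 counts over the control group. SPTSSB on its other side rose by 0.74 (edgeR adjusted p = 0.00288). MCM6, next to LCT, fell by 0.27 (edgeR adjusted p = 0.00513) while LCT rose. The genes on either side of ALPI, ALPPL2 and ECEL1, had log2 fold changes of 5.00 and 0.71. Those on either side of DPP4, AHCTF1P1 and LOC100131604, had -0.47 and -0.84. Of the 40 tested neighbours of SI, 15 were called higher and 14 lower, beside 27.7% and 27.3% of all tested genes.

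By root mean square difference over the 6 log2 CPM values, the genes most like SI in level and pattern were C15orf48 (0.452), EMP1 (0.618) and NHS (0.676). C15orf48 went from 0.277 to 22.1 CPM. Those most like DPP4 were LSG1 (0.0903), GLDC (0.133) and TOMM34 (0.149), and LSG1 went from 295 to 157 CPM.

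Many other hydrolases and relatives of these families rose. In a list of 40 such genes, which mixes microvillus enzymes with intracellular relatives, 28 were tested, 21 rose, 5 fell and 2 did not pass. Over all tested genes, 27.7% rose and 27.3% fell. The list's median log2 fold change was 0.98, beside 0.01 over all tested genes. NT5E, which makes adenosine from AMP at the cell surface, rose from 0.155 ± 0.164 to 23.5 ± 2 CPM (SD, n = 3). NAALADL1 had a log2 fold change of 4.09 (SE 0.58). The aminopeptidase gene TRHDE, with 0 counts in the control and 84 in the other group, was at least 27.8-fold higher against 3 counts over the control group.

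Members of that list that fell included ENPP7, an intestinal sphingomyelinase (-1.92, SE 0.23), and the lysosomal dipeptidyl peptidase gene DPP7 (-0.98, SE 0.11). The others that fell were GGT1, which splits glutathione at the cell surface (-0.94, SE 0.14), ECE1 (-0.85, SE 0.08) and the cytosolic aminopeptidase gene NPEPPS (-0.56, SE 0.07). Among relatives of DPP4, FAP had 0 counts in the control and 4 in the other group, and DPP10 had 0 in both. LVRN, related to ANPEP and ENPEP, had 5 and 11 counts.

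Carriers that take up the products moved both ways. Of 14 tested in a list of 17, 8 rose, 4 fell and 2 did not pass, with a median log2 fold change of 0.39. Shares over all tested genes were 27.7% higher and 27.3% lower. Among carriers of sugars, SLC2A2, the basolateral glucose carrier, fell by 1.77 (SE 0.22) and SLC2A1 by 0.41 (SE 0.07). The apical glucose carrier SLC5A1 had 0, 4 and 0 counts in the control and 20, 29 and 11 in the other group, too few to be tested, and the fructose carrier SLC2A5 had 0 and 8 counts in all. Amino acid carriers that rose included SLC6A20 by 5.55 (SE 0.17), SLC7A8 by 5.18 (SE 0.14), SLC3A1 by 2.59 (SE 0.12), SLC6A19 by 2.18 (SE 0.39) and SLC7A9 by 0.83 (SE 0.15). The amino acid carriers SLC16A10 and SLC7A7 fell by 0.47 and 0.34, and the phosphate carrier SLC20A1 rose by 0.74 (SE 0.06). SLC15A1, the peptide carrier, did not pass (-0.21, SE 0.13).

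Of 16 tested transcription factor genes in a list of 17, 8 rose, 4 fell and 4 did not pass. Background shares over all tested genes were 27.7% higher and 27.3% lower. The list's median log2 fold change was 0.18. CDX2 rose from 77 ± 5.39 to 164 ± 12.4 CPM, HNF4G from 2.11 ± 0.491 to 20.1 ± 1.72 CPM and KLF5 from 79.1 ± 7.93 to 309 ± 24.7 CPM (SD, n = 3). CDX1 had 0 counts in the control and 10 in the other group. GATA5 fell by 1.88 (SE 0.23), and GATA4 rose by 0.26 (SE 0.10) at an adjusted p of 0.0492 by edgeR, a call lost in all 6 fits that left out 1 library (edgeR adjusted p for GATA4 from 0.0554 to 0.129).

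In a list of 24 genes of apical delivery and the microvillus scaffold, 23 were tested, 10 rose, 10 fell and 3 did not pass. Over all tested genes the shares were 27.7% higher and 27.3% lower. The list's median log2 fold change was 0.14. LGALS4, a lectin of apical sorting, rose by 4.77 (SE 0.19), the protocadherin gene CDHR2 by 3.91 (SE 0.17) and the brush border myosin gene MYO1A by 3.32 (SE 0.09). GOLGA2, the partner protocadherin gene CDHR5 and the scaffold gene USH1C fell by 0.64, 0.58 and 0.40 (SE 0.06, 0.10 and 0.09).

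**Figure D5:**
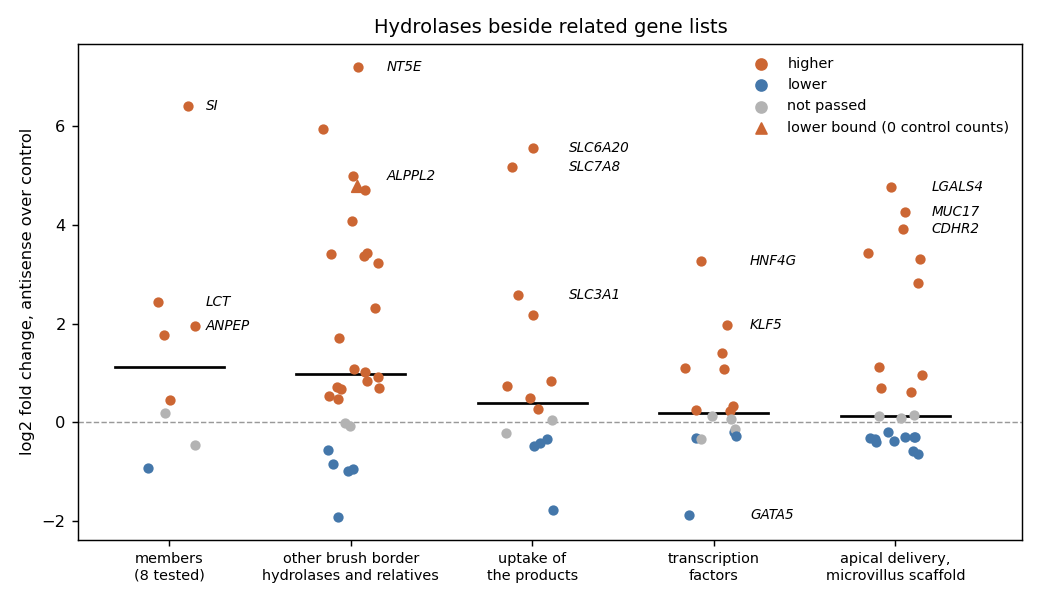
Log2 fold changes (y axis) of the tested hydrolases and of 4 related gene lists, 1 point per gene, with the list median as a bar and some of the genes with the largest changes named; the triangle is TRHDE at its lower bound. The medians are 1.11, 0.98, 0.39, 0.18 and 0.14 from left to right.

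DPP4, ANPEP and MME are also made by other cell types, so markers of these were read. All 6 libraries were of the Caco-2 line. Markers tested were 4 leukocyte, 5 fibroblast, 5 kidney tubule, 2 endothelial and 7 hepatocyte. Over all tested genes, 27.7% were higher and 27.3% lower. Of 8 leukocyte markers, 3 rose and 1 fell; PTPRC and MS4A1 had 0 counts in every library, while CSF1R rose by 3.60 (SE 0.65), LYZ by 1.04 (SE 0.08) and CD68 by 0.69 (SE 0.08), and CD14 fell by 2.38 (SE 0.13), and summed levels were 44.0 to 48.0 and 63.2 to 66.8 CPM. Of 8 fibroblast markers, 2 rose and 2 fell; COL1A2, DCN and THY1 were at 0, while the 5 tested ran from -5.78 to 7.12 (log2; LUM, 0.133 ± 0.0873 to 18.1 ± 1.87 CPM), and summed levels were 39.4 to 42.3 and 31.5 to 35.6 CPM. Of 9 kidney tubule markers, 1 rose and 2 fell, SLC22A6 and UMOD were at 0, and summed levels were 568 to 714 and 338 to 350 CPM, nearly all from LRP2. Of 5 endothelial markers, 2 rose and CDH5, KDR and TEK were at 0, with summed levels of 0.833 to 1.42 and 2.39 to 2.67 CPM. Of 8 hepatocyte markers, 2 rose and 4 fell, with summed levels of 2810 to 3170 and 1410 to 1590 CPM. The part of such expression in the hydrolase values was not tested.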

How the data were processed

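PolyA RNA of 6 Caco-2 libraries was extracted with TRIzol and prepared with the TruSeq Stranded mRNA kit, per the labels' protocols. Per the submitters' processing notes, the build was GRCh37 and the tools included HISAT2 2.1.0, StringTie 1.3.4d, Bowtie2 2.3.4.1, Trimmomatic 0.38 and bcl2fastq (roles not given). The authors deposited raw read counts per gene and library, not normalized; these deposited counts were used, and 12 other per-library columns were not. Columns were assigned to groups by the group name in their headers.

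Counts were filtered (filterByExpr, 14640 genes kept), scaled by TMM and tested with edgeR 4.0.16 (glmQLFit, glmQLFTest, R 4.3.3), adjusted over all tested genes at a threshold of 0.05. CPM used TMM effective library sizes. The SE is the absolute log2 fold change over the square root of F. Intervals are 95%. Alternatives covered scaling, filters, DESeq2 1.42.0, each library left out, and a block on header numbers. The fit was tested on simulated data. Within a group, counts differed beyond sampling noise (chi-square over its degrees of freedom, 14.3 to 41.2). Precision was set by depth and by 3 libraries a group; floors of 3 counts cover counting error only.

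Named genes were the 9 hydrolases, close relatives, and list members past the threshold with the largest changes; other list members were named after their values were seen, as were genes beside or overlapping a member. A few list members that this rule selects are not reported. Members and lists were chosen with earlier results of these data known, and motifs with the promoter sequences in view; promoter identity counted gaps as mismatches. RefSeq order (GRCh38.p14, no gene coordinates) placed 14604 tested genes (99.8%).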

Additional observations from a re-analysis of the deposited data

How the results depend on the processing

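For the 8 tested hydrolases, the direction and the side of the 0.05 threshold were the same in all 95 values from fits that changed the scaling, filter or test, added the replicate block or left out 1 library. ENPEP was under the stricter filter of at least 1 CPM in 3 libraries. SI ranged from 6.04 to 6.68 (log2) over the fits without 1 library. The median over the tested hydrolases, 1.11, was 1.38 with no filter and 1.40 by DESeq2, where MGAM entered, 1.78 under the stricter filter, where ENPEP dropped out, and 1.01 to 1.79 without 1 library; with MGAM among them, 6 rose without control library 4. Under the block, 3355 genes were higher and 3306 lower, against 4062 and 3992. Same-numbered libraries did not deviate together (correlations 0.02, -0.06 and -0.05). With 3 libraries a group, these values cannot show whether same-numbered libraries were handled as pairs.

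For 113 other genes, 1277 of 1348 fits gave the same call. Calls of GATA4, GATA6, ELF3, VIL1, ESPN, STXBP2, LNPEP, ASAH2, ECEL1, SLC36A1 and VWF were lost without some libraries. Genes that did not pass changed sign without some library, over ranges of -0.07 to 0.02 for DPP9, -0.27 to 0.07 for ENTPD8 (0.06 in another such fit), -0.04 to 0.10 for SLC3A2 (also -0.02), 0.00 to 0.12 for FOXA2, -0.14 to 0.03 for COL1A1 (also 0.02) and -0.17 to 0.08 for ALB (also 0.07). Depth left MGAM, with 15 control counts, under the filter.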
